A study of Mus musculus with 18 samples.

Results

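The 10 genes described here, Wnt1, Wnt2b, Wnt3, Wnt3a, Wnt4, Wnt5a, Wnt5b, Wnt6, Wnt8a and Wnt11, encode secreted Wnt ligands. They were chosen by name and matched by Ensembl identifier, and they make up 10 of the 19 annotated Wnt ligand genes and 10 of the 53465 genes in the table. RNA was measured in pieces of the mouse embryonic axis at embryonic day 9, from embryos with 20 to 24 somites. The study asked which genes depend on the homeodomain factors Meis1 and Meis2 during patterning of the skeleton along the axis. As matched by genotype, labelled sex and somite number, each of 9 embryos gave an anterior piece, which is the somite-bearing axis in front, and a posterior piece, which is the tail-end growth zone (axial bud) and the youngest somites. There were 5 control embryos and 4 double knockout (DKO) embryos, in which Meis1 and Meis2 had been conditionally deleted with Delta1Cre. This gives 4 groups, with 5 libraries for each region of the controls and 4 for each region of the DKO embryos. The alleles carried by the controls are not given in the sources used here. Deletion can be expected only in cells with a history of Delta1Cre activity, so each DKO piece may also hold cells that kept both genes.

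Wnt proteins are lipid-modified signals that bind Frizzled receptors together with coreceptors. In the canonical branch, binding with Lrp5 or Lrp6 stabilises beta-catenin, which activates target genes with Tcf and Lef factors; in other branches, receptors such as Ror2 and Ptk7 act on cell polarity and movement. In the elongating embryo, Wnt3a from the axial bud maintains the progenitors of neural tube and somites, Wnt5a is needed for outgrowth of the axis, and Wnt1 and Wnt3a are made by the dorsal neural tube, where they act on neighbouring somites and neural crest.

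The libraries held 12.7 M to 38.2 M assigned reads each. Levels are CPM, counts per 1000000 assigned reads with TMM-scaled library sizes, where 3 reads come to between 0.0798 and 0.231 CPM, and they are compared between genes only as CPM per kilobase of merged exon. Replicate numbers name embryos, so control embryo 1 gave both control libraries with that number. In 2 libraries, both from control embryo 1, Xist and Y-linked transcripts went against the labelled sex; no count of members past the threshold differed when this embryo was left out. Meis1 spanned 113 to 134 CPM in anterior controls and 90.3 to 111 CPM in anterior DKO pieces, and 59.8 to 99.7 against 46.5 to 72.5 CPM in posterior pieces. Meis2 spanned 176 to 202 against 131 to 157 CPM in front and 118 to 160 against 90.3 to 117 CPM behind. The summed level of 9 axial bud markers was 16 to 21.3 CPM in anterior controls and 299 to 547 CPM in posterior controls, with Hoxb13 at or under 3 reads in every library.

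In control embryos, Wnt5a, Wnt5b, Wnt8a and Wnt3a were higher in the posterior piece, and Wnt1 and Wnt2b were higher in the anterior piece. Wnt3, Wnt4, Wnt6 and Wnt11 did not pass the test. Of the 10 members, all of them tested, 4 were higher and 2 lower at an adjusted p under 0.05, against 25.4% of all 15294 genes tested (12.1% higher and 13.3% lower). Those 6 did not overlap between the regions, against 19.8% of all genes that did not. The median log2 difference, posterior minus anterior, was 0.28 over the members and -0.01 over all genes tested. Adjusted p-values are from edgeR's quasi-likelihood test with Benjamini-Hochberg adjustment over all genes tested, unless another method is named. Marker lists also differed between the regions in controls. Surface ectoderm markers were higher behind in 7 of 8 cases (summed level 82.2 to 194 CPM in front and 229 to 338 CPM behind), and intermediate mesoderm markers in 6 of 6 (10.6 to 27.2 and 74.5 to 92.4 CPM). Like that of the axial bud markers, their part in the differences of the members was not tested. In pieces of tissue, fewer cells of a type and less RNA per cell cannot be told apart.

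Wnt5a (ENSMUSG00000021994, GRCm38 chr14:28504750-28527448, plus strand) encodes a ligand best known for signalling to cell polarity. Anterior control pieces 1 to 5 held 49.5, 45.6, 59.3, 42.2 and 43.1 CPM, and the posterior pieces of the same embryos held 149, 185, 157, 160 and 167 CPM. Every posterior library lay far above every anterior one, with a log2 difference of 1.77 (SE 0.0937, adjusted p = 9.41e-08). In DKO embryos 1 to 4 the anterior pieces held 29.5, 36.5, 27.3 and 30.9 CPM and the posterior pieces 185, 152, 236 and 140 CPM. These groups did not overlap either, and the log2 difference was 2.53 (SE 0.165, adjusted p = 6.34e-06). The exons of Wnt5a overlap those of an antisense gene, Gm2670, over 358 bp. Gm2670 stood at 0.703 to 1.24 CPM in anterior and 2.50 to 4.10 CPM in posterior controls. Whether reads were counted by strand is not given in the sources used here.

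Wnt5b (ENSMUSG00000030170, chr6:119432531-119544347, minus strand) is the close relative of Wnt5a. Its anterior control levels were 11.2, 12.0, 12.4, 13.7 and 11.3 CPM and its posterior control levels 32.9, 49.8, 31.2, 41.3 and 33.2 CPM. In DKO embryos they were 14, 13.2, 16.2 and 15.1 CPM in front and 40.9, 34.9, 60.1 and 44.6 CPM behind. Posterior and anterior libraries were fully apart in both genotypes. The log2 difference was 1.63 in controls (SE 0.128, adjusted p = 1.73e-06) and 1.63 in DKO embryos (SE 0.158, adjusted p = 6.78e-05).

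Wnt3a (ENSMUSG00000009900, chr11:59248033-59290752, minus strand) is the canonical ligand of the axial bud. Anterior control pieces held 12.9, 11.9, 10.6, 10.9 and 10.4 CPM and posterior ones 20.8, 26.6, 18.8, 18.5 and 15.1 CPM. The DKO pieces held 15.8, 12.5, 14.4 and 11.6 CPM in front and 23.1, 24.0, 33.9 and 21.5 CPM behind. No anterior library reached a posterior one of its genotype. The log2 difference of 0.81 in controls (SE 0.132, adjusted p = 0.000589) and 0.92 in DKO embryos (SE 0.160, adjusted p = 0.00244) was smaller than that of either Wnt5 gene; the differences between these genes were not tested.

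Wnt8a (ENSMUSG00000012282, chromosome 18, plus strand), a canonical ligand of the early posterior embryo, was the scarcest of the 4 posterior genes. The 5 anterior control libraries held 5 to 22 reads for it, or 1.02, 0.856, 0.385, 0.686 and 1.03 CPM, and the posterior ones 1.99, 2.76, 1.91, 1.74 and 1.88 CPM. Groups did not overlap and the log2 difference was 1.34 (SE 0.258, adjusted p = 0.00193). In DKO embryos it stood at 2.19, 1.08, 1.78 and 0.969 CPM in front and at 2.39, 2.18, 3.13 and 3.04 CPM behind. Anterior DKO embryo 1 reached the lowest posterior library, and the log2 difference of 0.83 did not pass the test (SE 0.286, adjusted p = 0.0752), though it did with DESeq2 (adjusted p = 0.0459) and in a fit of all 18 libraries (0.0392). Without DKO embryo 4 it was 0.58 (adjusted p = 0.269).

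The opposite order was found for Wnt1 (ENSMUSG00000022997, chr15:98789857-98793837, plus strand), a ligand of the dorsal neural tube and midbrain border. Anterior control pieces held 14.4, 16.9, 11.9, 17 and 11.4 CPM and posterior ones 8.09, 5.09, 6.60, 5.92 and 5.63 CPM. The DKO pieces held 17.2, 15.4, 17.9 and 13.5 CPM in front and 7.51, 9.31, 5.05 and 5.58 CPM behind. In each genotype every posterior library was below every anterior one, by a log2 difference of -1.20 in controls (SE 0.153, adjusted p = 8.95e-05) and -1.21 in DKO embryos (SE 0.187, adjusted p = 0.00129). The summed level of 8 markers of the roof plate and dorsal neural tube moved with it, from 282 to 372 CPM in anterior controls to 133 to 165 CPM in posterior controls. Of these, 6 of 8 were lower behind, and Zic1, at a mean of 147 CPM in front and 22.1 CPM behind, made up most of the drop. Msx1 (log2 difference -0.04, adjusted p = 0.846) and Lmx1a (-0.29, adjusted p = 0.165) did not pass. The sum also differed for 8 neural tube markers, from 492 to 624 CPM to 277 to 385 CPM, with 8 of 8 lower behind, and for 6 markers of dermomyotome and myotome, from 118 to 133 CPM to 65.4 to 91.8 CPM, with 5 of 6 lower; Pax3 and Pax7 stand in both this list and the dorsal one. The part of these lists in the Wnt1 difference was not tested.

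Wnt2b (ENSMUSG00000027840, chr3:104945272-104961921, minus strand) rests on few reads, between 8 and 42 in a library. Anterior controls held 1.92, 1.56, 1.77, 1.60 and 1.87 CPM and posterior controls 0.798, 0.992, 0.655, 0.787 and 0.517 CPM, without overlap (log2 difference -1.20, SE 0.211, adjusted p = 0.00107). In DKO embryos, anterior levels of 1.15, 1.49, 1.38 and 1.18 CPM and posterior levels of 1.52, 1.48, 1.22 and 0.913 CPM were interleaved, with a log2 difference of 0.00 (SE 0.230, adjusted p = 0.994).

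Start-site sequences are shown for 3 members that differed between the regions in both genotypes. They come from RefSeq (GRCm38.p6), run 5′ to 3′ on the gene's strand and cover 250 bases before to 50 after an annotated start; 8 of the 10 members matched, all but Wnt5a and Wnt8a, with 11 windows. Capitals mark matches, on either strand, to the core CTTTGA bound by Tcf and Lef factors, the core TGACAG bound by Meis factors or the core TTTATG bound by Cdx factors. Wnt3a is given at chr11:59290702-59291001, minus strand. Wnt5b is given at its distal start, chr6:119544298-119544597, and at the internal start that held matches, chr6:119449337-119449636, both on the minus strand. The other Wnt5b window, at chr6:119467162-119467461, held no match and is not printed. Wnt1 is given at chr15:98789607-98789906, plus strand.
Wnt3a: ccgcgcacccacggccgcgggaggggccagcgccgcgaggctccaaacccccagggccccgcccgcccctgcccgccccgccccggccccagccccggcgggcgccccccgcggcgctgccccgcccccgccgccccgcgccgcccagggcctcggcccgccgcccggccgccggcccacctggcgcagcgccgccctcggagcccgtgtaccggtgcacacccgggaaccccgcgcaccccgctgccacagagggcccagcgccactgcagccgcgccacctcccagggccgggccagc
Wnt5b distal: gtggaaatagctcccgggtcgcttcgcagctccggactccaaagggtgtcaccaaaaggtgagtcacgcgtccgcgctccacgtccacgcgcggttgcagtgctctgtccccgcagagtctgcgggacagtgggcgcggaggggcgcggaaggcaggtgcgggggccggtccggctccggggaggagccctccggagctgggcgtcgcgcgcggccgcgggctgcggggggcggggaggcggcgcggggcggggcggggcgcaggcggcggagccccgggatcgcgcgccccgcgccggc
Wnt5b internal: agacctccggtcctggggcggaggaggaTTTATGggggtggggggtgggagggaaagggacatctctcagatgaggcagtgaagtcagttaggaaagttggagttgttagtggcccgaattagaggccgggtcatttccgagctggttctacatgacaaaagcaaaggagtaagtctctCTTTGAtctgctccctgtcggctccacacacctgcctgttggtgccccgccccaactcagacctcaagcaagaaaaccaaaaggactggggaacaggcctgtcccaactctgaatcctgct
Wnt1: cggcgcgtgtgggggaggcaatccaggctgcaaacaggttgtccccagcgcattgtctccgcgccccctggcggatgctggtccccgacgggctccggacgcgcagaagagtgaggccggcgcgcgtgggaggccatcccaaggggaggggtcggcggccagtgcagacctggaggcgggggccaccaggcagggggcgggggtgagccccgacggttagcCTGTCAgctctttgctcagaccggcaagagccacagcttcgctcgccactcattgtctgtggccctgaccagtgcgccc
The Wnt3a and distal Wnt5b windows held none of these letters. The internal Wnt5b window held the Cdx core from position 29 and the Tcf/Lef core from position 180, and the Wnt1 window held the Meis core on the minus strand from position 222, counted from the first base shown. Over the 11 member windows, 2 held the Tcf/Lef core, 3 the Meis core and 1 the Cdx core, and no matches overlapped. Over all 32851 windows the shares were 16%, 19.2% and 11.9%. G and C made up 86.3% of the Wnt3a window, 78.0% and 55.0% of the 2 Wnt5b windows shown and 70.7% of the Wnt1 window, against a median of 52.7%. A match describes the letters only.

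**Figure D1:**
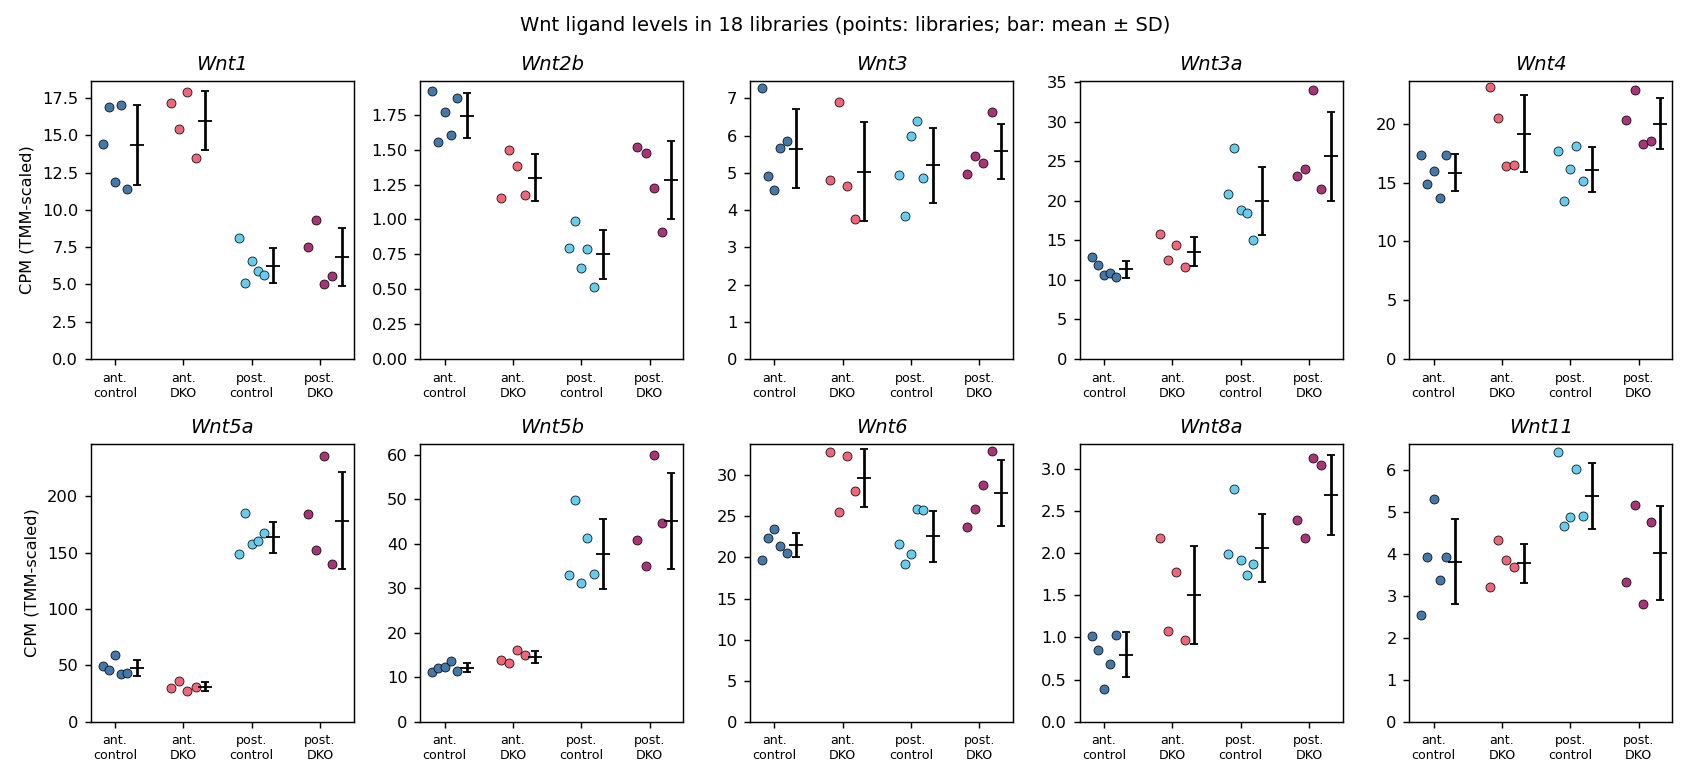
Level of each of the 10 Wnt genes in every library, in CPM on a linear axis from 0 with its own scale for each gene, by region and genotype; points are libraries and bars the mean ± SD. Wnt5a and Wnt5b separate the regions in both genotypes, and Wnt1 separates them the other way.

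The remaining members showed no difference between the regions that passed the test. Wnt4 (ENSMUSG00000036856, chr4:137277489-137299726, plus strand), known from kidney and gonad development, differed by 0.02 on the log2 scale in controls (adjusted p = 0.918) and 0.07 in DKO embryos (0.790). Wnt6 (ENSMUSG00000033227, chr1:74771892-74785322, plus strand), a ligand of surface ectoderm that acts on somite epithelium, differed by 0.06 (adjusted p = 0.693) and -0.09 (0.706). Wnt3 (ENSMUSG00000000125, chr11:103774150-103817957, plus strand), needed for the primitive streak, differed by -0.12 (adjusted p = 0.661) and 0.16 (0.662). Its levels spanned 3.77 to 7.29 CPM over all 18 libraries. Wnt11 (ENSMUSG00000015957, chr7:98835112-98855195, plus strand), a ligand of cell movement and kidney branching, stood at 2.54 to 5.32 CPM in anterior and 4.68 to 6.44 CPM in posterior controls, and at 3.22 to 4.33 and 2.82 to 5.16 CPM in the DKO pieces. Its log2 difference of 0.50 in controls (SE 0.185) missed the threshold (adjusted p = 0.0679) but passed it with DESeq2 (0.0342), with limma-voom (0.0311) and without control embryo 3 (0.0276). Without control embryo 1 it was 0.31 (adjusted p = 0.279). In DKO embryos, 3 members were higher and 1 lower in the posterior piece, against 18.5% of the 15777 genes tested (8.76% higher and 9.7% lower). The same 4 did not overlap, against 23.4% of all genes, and the median over all 10 was 0.13 against 0.01 over all genes.

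**Figure D2:**
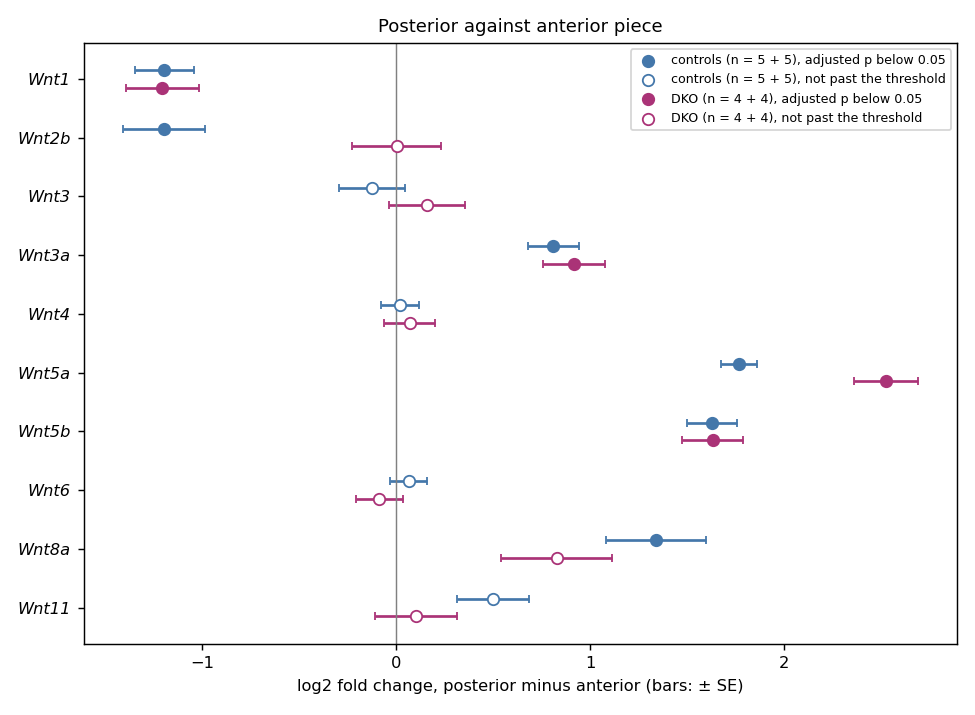
Log2 difference in level, posterior minus anterior, for each Wnt gene in controls (5 embryos) and DKO embryos (4), with bars of ± SE. Filled circles passed the threshold and open ones did not; Wnt5a, Wnt5b and Wnt3a lie above 0 and Wnt1 below 0 in both genotypes.

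Per kilobase, the order of the members differed between the regions. Length here is that of all annotated exons merged, 7823 bp for Wnt5a and 2192 bp for Wnt6, and not that of the transcripts expressed. The order and the shares below depend on this length. In anterior controls Wnt6 was highest at 9.81 CPM per kb, followed by Wnt5a (6.13), Wnt1 (6.03), Wnt5b (4.57), Wnt3a (4.10), Wnt4 (3.78), Wnt3 (1.84), Wnt11 (0.923), Wnt8a (0.455) and Wnt2b (0.415). The ranges of neighbours overlapped from Wnt5a through Wnt4 and again for Wnt8a and Wnt2b, although Wnt1 was above Wnt5b in 5 of 5 of these libraries. In posterior controls the order was Wnt5a at 20.9 CPM per kb, Wnt5b (14.2), Wnt6 (10.3), Wnt3a (7.23), Wnt4 (3.84), Wnt1 (2.63), Wnt3 (1.69), Wnt11 (1.30), Wnt8a (1.18) and Wnt2b (0.178). There, ranges were apart below Wnt5a, Wnt3a, Wnt1 and Wnt8a. In anterior DKO pieces Wnt6 led at 13.5 CPM per kb and Wnt5a stood at 3.97, with a range overlapping that of Wnt4 above it.

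Summed over the 19 Wnt genes, the level was 49.3 ± 2.80 CPM per kb in anterior controls (SD, n = 5) and 72.9 ± 3.75 in posterior controls (SD, n = 5). It was 54.1 ± 3.87 in anterior and 83.1 ± 9.50 in posterior DKO pieces (SD, n = 4 each). The 10 members held 77.3% of the sum in anterior and 87.1% in posterior controls. Wnt5a held 12.4% of it in anterior controls, 7.38% in anterior DKO, 28.7% in posterior controls and 27.2% in posterior DKO pieces, and Wnt6 held 19.9%, 25.1%, 14.2% and 15.4% in the same order. These shares are descriptions, with no test.

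**Figure D3:**
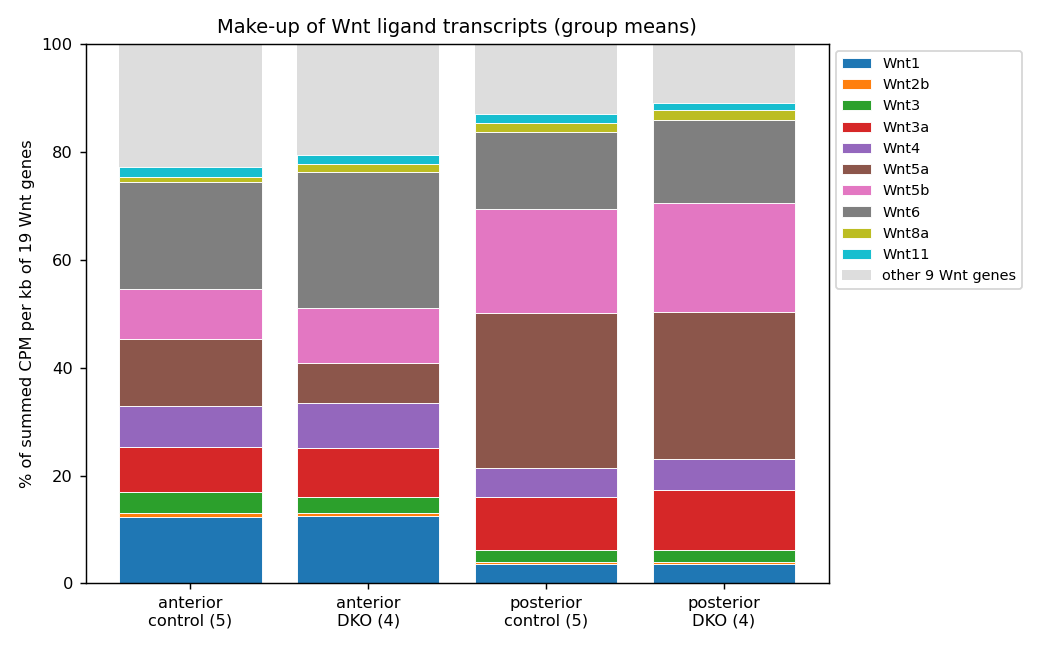
Share of the summed CPM per kb of the 19 Wnt genes held by each member, as the mean over the libraries of each of the 4 groups. Wnt5a holds 28.7% in posterior controls and 12.4% in anterior controls.

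Comparing DKO with control embryos, none of the 10 members passed the threshold in either region. In anterior pieces 0 of 10 were called, against 0.0394% of 15238 genes, and 7 had an unadjusted p under 0.05, against 13% of all genes. Log2 differences were above 0 for 6, against 50% of all genes. Levels did not overlap between genotypes for 3 members, against 5.12% of all genes. The median log2 difference, DKO minus control, was 0.20 over the members and 0.00 over all genes.

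The anterior Wnt5a levels given above, 27.3 to 36.5 CPM in DKO and 42.2 to 59.3 CPM in control pieces, did not overlap, with a log2 difference of -0.63 (SE 0.110, adjusted p = 0.0641). This value lies close to the threshold, and the call depended on the fit. The adjusted p was 2.21e-05 with DESeq2, 0.0133 with no filter on low counts, 0.0205 with somite number and labelled sex as covariates, 0.0489 with limma-voom and 0.0390 without DKO embryo 2, and it reached 0.259 over the other alternatives. The summed level of 6 sclerotome markers was 367 to 412 CPM in anterior controls and 237 to 324 CPM in anterior DKO pieces. That of 6 intermediate mesoderm markers was 10.6 to 27.2 CPM and 7.19 to 17.3 CPM. Log2 differences were above 0 in 0 of 6 for both lists, and for 6 primitive erythroid markers, with 0 called. Neural tube markers, given below, went the other way. The part of these lists in the Wnt5a value was not tested.

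Wnt6 lay on the other side. Anterior controls held 19.7, 22.4, 23.4, 21.4 and 20.5 CPM and anterior DKO pieces 32.8, 25.6, 32.3 and 28.0 CPM. All 4 DKO libraries were above all 5 controls, with a log2 difference of 0.46 (SE 0.0884, adjusted p = 0.0881). The adjusted p was 0.000725 with DESeq2, 0.0319 with no filter and 0.0390 without DKO embryo 2, and reached 0.334 over the other alternatives. The summed level of 8 neural tube markers also did not overlap between these groups, at 492 to 624 CPM in controls and 652 to 728 CPM in DKO pieces. None of the 8 was called, but all 8 had log2 differences above 0, 7 had an unadjusted p under 0.05 and 4 did not overlap. Their part in the Wnt6 and Wnt5a values was not tested. The summed level of 8 surface ectoderm markers overlapped, at 82.2 to 194 CPM in controls and 101 to 170 CPM in DKO pieces.

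Anterior Wnt2b levels also did not overlap, with a log2 difference of -0.44 (SE 0.183, adjusted p = 0.350). Wnt8a had the widest anterior difference, 0.90 on the log2 scale, on few reads and with overlapping groups (SE 0.331, adjusted p = 0.291). The other anterior differences ran from -0.18 for Wnt3 to 0.27 for Wnt4, with adjusted p of 0.273 or above. Wnt3 ran from -0.37 without DKO embryo 2 to -0.06 without DKO embryo 4, and Wnt4 stood at 0.16 without DKO embryo 1.

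In posterior pieces 0 of 10 members were called, with edgeR as with DESeq2, against 0.0126% of 15936 genes, and 3 had an unadjusted p under 0.05, against 11% of all genes. Log2 differences were above 0 for 9 members, against 52.4% of all genes, with a median of 0.28 against 0.01. Wnt4 was the single member without overlap, against 4.26% of all genes. Posterior controls held 17.7, 13.4, 16.2, 18.1 and 15.2 CPM of Wnt4 and posterior DKO pieces 20.3, 22.9, 18.3 and 18.5 CPM, so the lowest DKO library was just above the highest control (log2 difference 0.31, SE 0.108, adjusted p = 0.410). In anterior pieces Wnt4 stood at 17.3, 14.9, 16, 13.7 and 17.3 CPM in controls and 23.2, 20.5, 16.5 and 16.5 CPM in DKO, with overlap.

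Posterior Wnt6 stood at 21.7, 19.1, 20.4, 25.9 and 25.7 CPM in controls and 23.7, 25.9, 28.8 and 32.9 CPM in DKO pieces, which overlapped (log2 difference 0.31, adjusted p = 0.449). Posterior Wnt2b had the largest value, 0.76 (SE 0.263, adjusted p = 0.409), and Wnt11 the lowest, -0.42 (SE 0.197, adjusted p = 0.462). Posterior Wnt5a differed by 0.12 (SE 0.134, adjusted p = 0.714). Beside these values, the summed level of 6 intermediate mesoderm markers was 74.5 to 92.4 CPM in posterior controls and 36.0 to 59.3 CPM in posterior DKO pieces, and that of the surface ectoderm markers 229 to 338 and 346 to 418 CPM. Axial bud markers summed to 299 to 547 and 338 to 584 CPM, with log2 differences above 0 in 8 of 8 tested, and roof plate and dorsal neural tube markers to 133 to 165 and 150 to 208 CPM, with 5 of 6 tested above 0. Sclerotome markers summed to 362 to 476 and 201 to 371 CPM, with log2 differences above 0 in 0 of 6, and neural tube markers to 277 to 385 and 328 to 431 CPM, with 8 of 8 above 0. Primitive erythroid markers summed to 1359 to 2197 and 1626 to 3351 CPM, with 6 of 6 above 0. None of these markers was called. Their part in the member values was not tested.

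**Figure D4:**
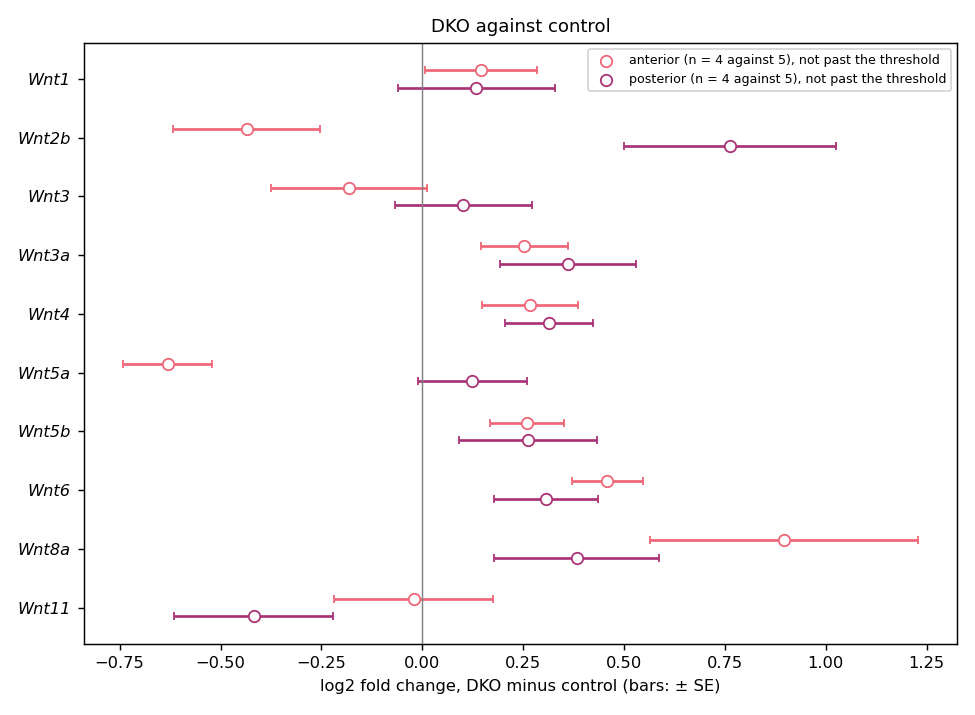
Log2 difference in level, DKO minus control, for each Wnt gene in anterior and posterior pieces (4 DKO against 5 control embryos each), with bars of ± SE. Open circles mark values not past the threshold, which are all 20; anterior Wnt5a lies at -0.63 and anterior Wnt6 at 0.46.

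Whether the DKO difference itself varied between the regions was tested by the interaction over 18 libraries. It called 0 of 10 members, against 0% of 16428 genes; 2 members had an unadjusted p under 0.05, against 3.45% of all genes. These were Wnt2b, with an interaction of 1.20 on the log2 scale (SE 0.293, adjusted p = 0.816), and Wnt5a, with 0.76 (SE 0.188, adjusted p = 0.816). Of 6 primitive erythroid markers, 0 were called, all 6 had interactions above 0 with a median of 1.19, and 5 had an unadjusted p under 0.05. Their summed level was 963 to 4595 CPM in anterior controls, 1198 to 2028 CPM in anterior DKO, 1359 to 2197 CPM in posterior controls and 1626 to 3351 CPM in posterior DKO pieces. Their part in the member values was not tested. Over the alternatives the adjusted p of Wnt5a ran from 0.0757 with DESeq2 upward. Within embryos, the log2 difference of posterior minus anterior Wnt5a was 1.41 to 2.02 in the 5 controls and 2.06 to 3.11 in the 4 DKO embryos, so the genotypes did not overlap. For Wnt2b it was -1.85 to -0.65 in controls and -0.37 to 0.40 in DKO embryos. The other 8 members overlapped between genotypes. Over the 16418 genes above 0 in every library, 1.61% did not overlap in this way. Wnt5a, Wnt5b, Wnt3a and Wnt8a were higher behind, and Wnt1 lower, in all 9 embryos.

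**Figure D5:**
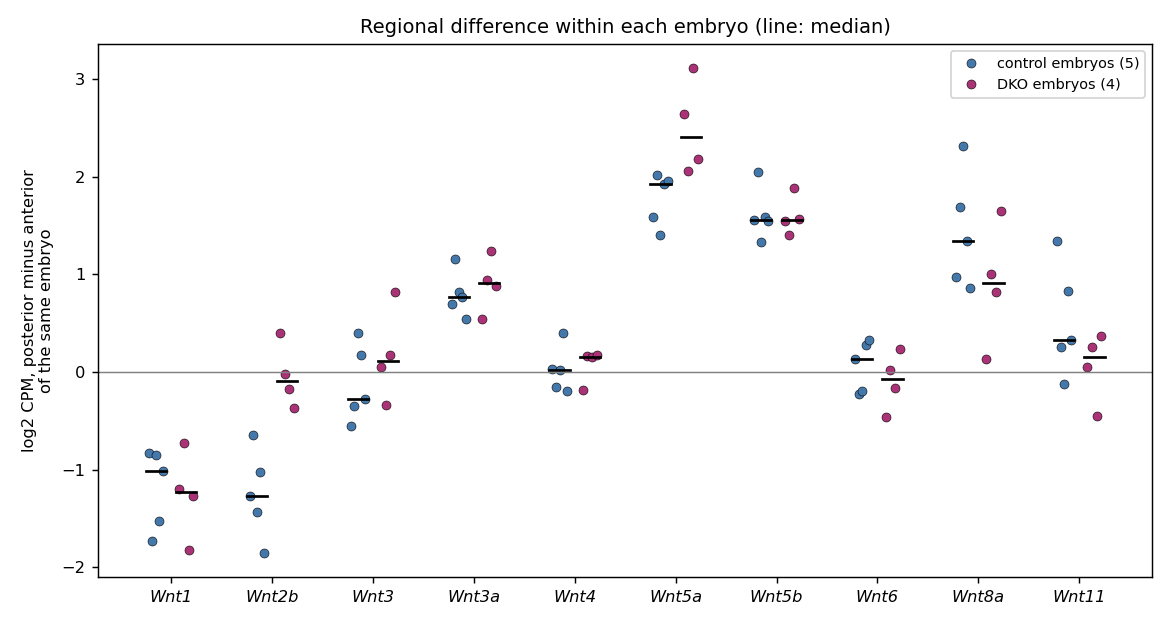
Log2 CPM of the posterior piece minus that of the anterior piece of the same embryo, for each Wnt gene; points are embryos and lines are medians. The Wnt5a values of the DKO embryos (2.06 to 3.11) lie above those of the controls (1.41 to 2.02), while the interaction of Wnt5a did not pass the test (adjusted p = 0.816) and 8 members overlapped.

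Several members lie beside another Wnt gene, and neighbours did not always share a regional difference. Wnt3a is 16175 bp from Wnt9a, which was lower in posterior controls (log2 difference -1.21, adjusted p = 0.0102) where Wnt3a was higher. Wnt3, with no call, is 24328 bp from Wnt9b, which was higher (1.98, adjusted p = 7.24e-05). Wnt1 is 11706 bp from Wnt10b (-0.24, adjusted p = 0.661), and Wnt6 is 6193 bp from Wnt10a (0.37, adjusted p = 0.339).

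The rest of the pathway was read from lists of genes, whose counts stand against 12.1% higher and 13.3% lower among all genes tested in controls. Among the other 9 Wnt ligands, 8 were tested in controls, and 2 were higher and 3 lower in the posterior piece. Wnt9b and Wnt7b (0.77) were higher, and Wnt9a and Wnt16 (-1.04) lower. Wls, which carries Wnt proteins to the cell surface, was higher (0.42, adjusted p = 0.0473), and Porcn, which attaches their lipid, lower (-0.49, adjusted p = 0.0409). Of 16 receptors and coreceptors 5 were higher and 3 lower. Ptk7, a coreceptor of the polarity branch, was higher by 1.16 and Fzd1 by 0.57, while Ror1 (-0.81) and Fzd3 (-0.61) were lower. Of 7 R-spondins and their receptors, which enhance Wnt signalling, 2 were higher and 1 lower, namely Rspo3 (1.96), Rspo1 (0.77) and Lgr4 (-0.41).

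Of 12 genes listed as secreted or membrane inhibitors, 3 were higher and 3 lower in posterior controls. Cer1 and Dkk1 (3.51) were among the higher and Sfrp5 (-3.29) and Sfrp1 (-1.18) among the lower. Whether each listed gene blocks Wnt proteins in the mouse was not examined. Cer1 had at most 3.02 expected counts in an anterior control library and averaged 5.14 CPM behind. Of 16 feedback inhibitors and direct targets 12 were higher and 0 lower, with a median log2 difference of 0.91. Tbx6, a presomitic mesoderm factor, was higher by 6.53. Msgn1, another, was at 2 reads or fewer in every anterior control library and averaged 17.9 CPM behind. Both, with T, are also axial bud markers. Axin2, a general feedback target, differed by -0.02 (adjusted p = 0.895). Of 10 planar polarity genes 2 were higher and 3 lower, with Prickle1 at 1.88, Celsr1 at 0.28, Celsr3 at -2.15 and Celsr2 at -1.44.

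In DKO embryos the same lists gave 3 higher and 2 lower among 8 other ligands tested, 4 and 3 of 16 receptors, 1 and 1 of 6 R-spondin genes, 3 and 2 of 12 inhibitors, 12 and 0 of 16 targets, and 2 and 3 of 10 polarity genes, against 8.76% higher and 9.7% lower among all genes tested. Wls was again higher and Porcn lower. Rspo3 differed by 2.51 in DKO embryos, and Rspo1 by 0.12 without passing the test (adjusted p = 0.764). No gene of these lists was called between DKO and control embryos in either region, or in the interaction. The smallest adjusted p among the receptors in anterior pieces was 0.0881, for Fzd1 (log2 difference -0.56).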

How the data were processed

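Libraries of polyadenylated RNA from 18 axis pieces were sequenced as single reads, per the labels' protocols. The authors deposited 1 table of RSEM expected counts per gene and library; CASAVA, cutadapt, RSEM and the GRCm38 build are named in the submitters' processing notes, whose versions are not given in the sources used here. Expected counts were rounded to whole numbers. Genes were filtered with filterByExpr (minimum count 10, minimum total 15), scaled by TMM and tested with edgeR 4.0.16 (quasi-likelihood F test, R 4.3.3) over all genes, with Benjamini-Hochberg adjustment and a threshold of 0.05. The standard error is the size of the log2 fold change divided by the square root of F. Each comparison used only its own groups, and the interaction all 18 libraries. Alternatives used DESeq2 1.42.0, limma-voom (limma 3.58.1), other size factors, other filters, covariates, an embryo block, 1 fit of all libraries and each embryo left out in turn. Gene names and positions came from GENCODE M21, which matched 53360 of the 53465 identifiers.

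The labels give no embryo numbers. Anterior and posterior pieces were matched by genotype, labelled sex and somite number, a combination unique within each genotype. Control embryos 1 and 5 both had 23 somites, so only labelled sex told them apart. In embryo 1, Xist and Y-linked transcripts went against that label. Beyond the labels, the matching of these embryos rests on the correlations that follow. The deviations from group means of 16428 genes correlated at 0.256 to 0.570 for the 9 matched pairs and at -0.283 to 0.0917 for pieces of different embryos. Litters are not given, so p-values of DKO against control measure the spread between these embryos. The main fits between regions and for the interaction left the pairing of pieces out. Their p-values treat both pieces of an embryo as independent, and the embryo block was an alternative. Genes outside the members were named by a rule: per pathway list, the 2 largest control differences between regions in each direction among called genes averaging 50 counts or more. Named outside it, after their values were seen, were Wnt10a, Wnt10b and Axin2, the markers Zic1, Msx1 and Lmx1a, Fzd1 between genotypes, and Rspo1 and Rspo3 between regions in DKO embryos. Members and lists were chosen with earlier results of these data known.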

Additional observations from a re-analysis of the deposited data

Results flagged for a closer look

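Wnt8a in the posterior piece of control embryo 2, at 2.76 CPM, stood apart from the other 4 posterior controls, which lay between 1.74 and 1.99 CPM. The gap to its nearest neighbour was 0.753 of the whole range of the group. It was the 1 library set apart in this way among 40 groups examined, 10 genes in 4 groups, where chance alone marks about 1 group in 20. Control embryo 2 had 20 somites, the fewest among the controls. Its posterior piece was also the highest of the posterior controls for Wnt3a (26.6 CPM), Wnt5a (185 CPM) and Wnt5b (49.8 CPM). DKO embryo 3, also with 20 somites, was the highest posterior DKO piece for Wnt8a (3.13 CPM), Wnt3a (33.9 CPM), Wnt5a (236 CPM) and Wnt5b (60.1 CPM). No other member was highest in both of these pieces. The part of somite number was not tested.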

How the results depend on the processing

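The count of members past the threshold in anterior DKO pieces was 0, but 2 with DESeq2, 2 with no filter on low counts, 1 with limma-voom and 1 with somite number and labelled sex as covariates; it ran from 0 to 2 when each embryo was left out, with 2 without DKO embryo 2. It was 0 in every alternative for posterior DKO pieces and the interaction, 4 to 7 for the regions in controls and 4 to 5 in DKO embryos. The 4 in controls came from the filter on a mean of 50 counts, under which 8 of the 10 members were tested. With the embryo as a replicate block the counts were 6 in controls, 4 in DKO embryos and 0 for the interaction, so the pairing changed no member's call. Of 692 values of single members under an alternative, 648 kept direction and side of the threshold, 13 passed it newly, 0 lost it and 31 changed sign, all 31 of values that were not called. Wnt5b's interaction changed sign to -0.0017 with RLE size factors, -0.0016 with DESeq2, -0.024 with limma-voom, -0.0092 with no filter and -0.016 with the block, and Wnt1's to 0.0051 with limma-voom. Wnt2b between regions in DKO embryos became -0.0042 with no filter, -0.017 with the block and -0.0018 in the fit of all libraries. With each embryo left out, the anterior DKO value of Wnt11 ran from -0.14 to 0.12, and the posterior ones of Wnt1 from -0.043 to 0.25, Wnt5a from -0.043 to 0.21 and Wnt3 from -0.0039 to 0.18. The interaction ran from -0.12 to 0.12 for Wnt5b, -0.21 to 0.16 for Wnt1, -0.035 to 0.24 for Wnt3a and -0.0075 to 0.15 for Wnt4. Regional values in controls ran from -0.24 to 0.0076 for Wnt3 and -0.071 to 0.077 for Wnt4, and in DKO embryos from -0.14 to 0.076 for Wnt2b, -0.22 to 0.036 for Wnt6, -0.064 to 0.36 for Wnt3 and -0.0033 to 0.25 for Wnt11. The cause of these changes was not tested. Over all genes, the 6 anterior DKO calls became 296 with DESeq2, 88 with covariates, 83 with no filter, 29 with limma-voom, 19 in the fit of all libraries and 1 to 57 with an embryo left out. The 2 posterior calls became 161 with DESeq2, 51 in the fit of all libraries, 14 with no filter, 1 among genes averaging 50 counts or more, and up to 24 without DKO embryo 2. The interaction gave 10 with DESeq2 and 1 without DKO embryo 2, and the 2913 regional calls in DKO embryos became 1728 without DKO embryo 1. Depth limits Wnt2b and Wnt8a most, with as few as 8 and 5 reads in a library.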

Other observations

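Over the 18 libraries, the protein-coding genes whose log2 CPM followed each member most closely differed from member to member. These Pearson correlations are descriptions over libraries that share region, genotype and embryo. Wnt5a was followed by Rnf213 (0.991), Rspo3 (0.989) and Il17rd (0.988), and Wnt5b by Tcea3 (0.987), Gbx2 (0.981) and Stra6l (0.979). For Wnt3a they were Igsf9 (0.957), Pm20d1 (0.934) and Aspg (0.934), and for Wnt8a Rab25 (0.906), Pm20d1 (0.889) and Camkv (0.888). Pm20d1 thus stood near both Wnt3a and Wnt8a. Wnt1 was followed by Adcyap1r1 (0.969), Fam131a (0.968) and Fgfr3 (0.966). For the members without a regional call the leading values ran from 0.789 for Wnt3 (Hmgn5) to 0.875 for Wnt4 (Agpat1). With the 4 group means subtracted, Il17rd led for Wnt5a at 0.914, and T, the mesoderm factor of the axial bud, was second for Wnt8a at 0.782.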
